A study of Mus musculus with 6 samples.

Results

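The 48 genes described here encode proteins that license and copy DNA, proteins that divide the copied chromosomes in mitosis, and the cyclins, kinases and E2f factors that set the entry into S phase. They were followed in RNA-seq of sorted mouse thymocytes at the DN1 stage, the CD44-positive, CD25-negative population in which the earliest thymic progenitors lie. Members were taken by gene symbol, with FPKM (fragments per kilobase of transcript, relative to all fragments mapped in that library) added over the loci that carry the symbol, and all 48 were found among 24318 symbols. The list holds 19 replication genes, 19 mitotic genes and 10 regulators of G1 and S phase. No measured value entered the choice by rule, although earlier results of these libraries were known.

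The series compared 3 libraries labelled Tle134-deficient with 3 libraries labelled WT, all from mice aged 5 to 8 weeks. Tle134 is read as Tle1, Tle3 and Tle4, corepressors of the Groucho family. Cells were sorted as CD44-positive after TCRb, CD8a, CD25 and lineage-marker positive cells had been gated out. The sources used here do not give the strain, sex, alleles, driver of any deletion or number of animals behind a library. Whether each library is a separate animal is unstated. The p-values therefore rest on the variation among these 6 libraries alone, some of which could be technical.

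The targeted genes went against the genotype labels, and the libraries are therefore called labelled-deficient throughout. Tle1 had 11.5, 11.3 and 11.1 FPKM in labelled-deficient replicates 1 to 3, against 1.37, 1.19 and 3.61 FPKM in WT replicates 1 to 3. Its adjusted p was 0.0954 (limma, Benjamini-Hochberg over all genes). Tle3 (58.6 to 82.6 FPKM in labelled-deficient and 23.4 to 35.9 FPKM in WT libraries) and Tle4 (17.8 to 35.2 and 14.5 to 18.8 FPKM) had no lower mean in the labelled-deficient group either. An FPKM over a whole locus also counts exons outside a deletion, so these values do not check which exons were lost. All directions below follow the labels as given and would turn if the labels were exchanged, which was not tested. Cd44 was present in all 6 libraries (32.5 to 74.3 FPKM in labelled-deficient and 27.5 to 53.4 FPKM in WT), and Cd8a reached at most 2.48 FPKM. Cd3e RNA was present in every library, although TCRb-positive cells had been gated out. It had 71.3, 25.1 and 16.0 FPKM in labelled-deficient replicates 1 to 3, against 78.8, 36.6 and 88.3 FPKM in WT replicates 1 to 3. Kit had 9.09, 21.5 and 33.9 FPKM, against 31.8, 36.5 and 37.1 FPKM. The groups also overlapped for Ptprc, Thy1 and Flt3. Il2ra, which encodes the CD25 that was gated out, had 4.22 to 7.36 FPKM in labelled-deficient and 1.69 to 3.59 FPKM in WT libraries (adjusted p 0.575, limma), and Cd4 had 7.93 to 29.6 and 4.03 to 19.5 FPKM. The widths of the deposited intervals imply 1.51e+06 to 4.34e+06 fragments in annotated loci of the labelled-deficient libraries and 1.42e+06 to 3.24e+06 in WT. Replicate 1 of each group was the shallowest.

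Origins of replication are licensed in G1 phase, when Cdc6 and Cdt1 load the Mcm2 to Mcm7 helicase onto them. Cyclin D with Cdk4 or Cdk6, and then cyclin E with Cdk2, release E2f factors from the retinoblastoma proteins, and E2f factors drive the genes of S phase. Genes of G2 phase and mitosis, such as Ccnb2, are instead controlled largely through CHR and CCAAT elements bound by the DREAM, B-Myb and NF-Y complexes. In the thymus, proliferation is strong among early progenitors and after beta-selection, while many other thymocytes are quiescent.

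Promoters were examined because they show how the replication and mitotic groups differ apart from their expression. RefSeq promoters (GRCm38.p6, 250 bases before to 50 after the start of each gene) were at hand for 40 of the 48 members and for 27025 genes in all. An E2F core (TTCCCGC or TTGGCGC, either strand) lay in 10 of 17 replication promoters (58.8%), 3 of 16 mitotic promoters (18.8%) and 2 of 7 regulator promoters (28.6%), against 6.93% of all promoters. A CHR (TTTGAA or TTCGAA, either strand) lay in 3 of 17 replication promoters (17.6%), 12 of 16 mitotic promoters (75%) and 0 of 7 regulator promoters, against 19.4% of all promoters. CCAAT, on either strand, lay in 11 of 17 replication (64.7%), 14 of 16 mitotic (87.5%) and 2 of 7 regulator promoters (28.6%), against 37.9% of all. CHR and CCAAT occurred together in 12 of 16 mitotic promoters, against 7.7% of all promoters. TTCGAA reads the same on both strands and was counted once, while ATTGG followed by CGC would count as a CCAAT box and as an E2F core. A match describes the letters only. The promoters of Mcm6 (a helicase subunit with the highest mean in its group), Cdt1 and E2f2 (the members with higher values in every labelled-deficient library) and Ccnb2 (a mitotic cyclin) are printed to show both kinds. Capitals mark every E2F core, CHR and CCAAT box on either strand, and each sequence runs 5′ to 3′ along the strand of its gene.
Mcm6, chr1:128359656-128359955, minus strand: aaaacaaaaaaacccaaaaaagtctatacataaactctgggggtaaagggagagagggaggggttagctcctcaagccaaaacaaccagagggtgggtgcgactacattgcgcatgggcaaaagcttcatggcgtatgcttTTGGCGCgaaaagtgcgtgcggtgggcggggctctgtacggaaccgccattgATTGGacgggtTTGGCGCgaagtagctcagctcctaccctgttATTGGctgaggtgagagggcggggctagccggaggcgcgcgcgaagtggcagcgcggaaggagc
Cdt1, chr8:122567765-122568064, plus strand: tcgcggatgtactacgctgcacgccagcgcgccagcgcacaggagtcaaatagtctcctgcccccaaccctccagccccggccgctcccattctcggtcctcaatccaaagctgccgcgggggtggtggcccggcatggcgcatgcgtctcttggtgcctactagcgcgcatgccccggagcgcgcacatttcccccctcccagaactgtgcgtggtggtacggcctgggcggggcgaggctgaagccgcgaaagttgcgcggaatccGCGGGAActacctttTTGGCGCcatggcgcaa
E2f2, chr4:136172024-136172323, plus strand: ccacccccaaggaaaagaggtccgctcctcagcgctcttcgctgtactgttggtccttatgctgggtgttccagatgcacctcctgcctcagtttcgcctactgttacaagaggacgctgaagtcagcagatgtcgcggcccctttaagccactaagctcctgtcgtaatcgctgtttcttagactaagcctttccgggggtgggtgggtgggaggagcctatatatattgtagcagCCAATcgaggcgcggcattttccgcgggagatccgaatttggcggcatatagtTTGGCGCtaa
Ccnb2, chr9:70421505-70421804, minus strand: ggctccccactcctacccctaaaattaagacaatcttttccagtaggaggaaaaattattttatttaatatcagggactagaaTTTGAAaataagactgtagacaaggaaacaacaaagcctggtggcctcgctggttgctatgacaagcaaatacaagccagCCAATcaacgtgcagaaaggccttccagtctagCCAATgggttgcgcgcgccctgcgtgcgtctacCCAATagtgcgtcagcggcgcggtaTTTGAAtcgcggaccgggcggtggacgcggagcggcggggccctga
Mcm6 holds 2 E2F cores and 2 CCAAT boxes, Cdt1 holds 2 E2F cores, E2f2 holds 1 E2F core and 1 CCAAT box, and Ccnb2 holds 2 CHR elements and 3 CCAAT boxes.

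Most replication and mitotic genes had lower mean values in the labelled-deficient libraries, but none of the members passed the test. Of the 48 members, 46 were tested alone: Gins2 was below the filter of 1 FPKM in at least 3 libraries, and Birc5 shared an assembled locus with Syngr2 in WT replicate 3. At an adjusted p of 0.05 (limma on log2(FPKM + 1), Benjamini-Hochberg), 0 of 46 members were higher or lower in labelled-deficient libraries, against 0.642% higher and 0.108% lower of the 11063 genes tested. At an unadjusted p of 0.05, 2 members were higher and 2 lower, against 5.68% and 4.35% of all genes, and these shares are near the background. The difference lay below 0 for 33 of 46 members (71.7%), against 47.3% of all genes tested. The median log2 difference, labelled-deficient minus WT, was -0.35 over the members and 0.04 over all genes. The replication genes had a median of -0.43 (14 of 18 below 0), the mitotic genes -0.35 (14 of 18) and the regulators 0.03 (5 of 10), whose sign turned with the scaling of the libraries (-0.03 after median-of-ratios scaling). On leaving out 1 library at a time, the medians ranged from -0.91 to -0.16 for replication genes, from -0.71 to -0.07 for mitotic genes and from -0.38 to 0.21 for the regulators. The replication median nearest to 0 came without labelled-deficient replicate 2, where the median over all genes was 0.10. In bulk RNA, fewer cycling cells and less RNA per cell cannot be told apart.

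**Figure D1:**
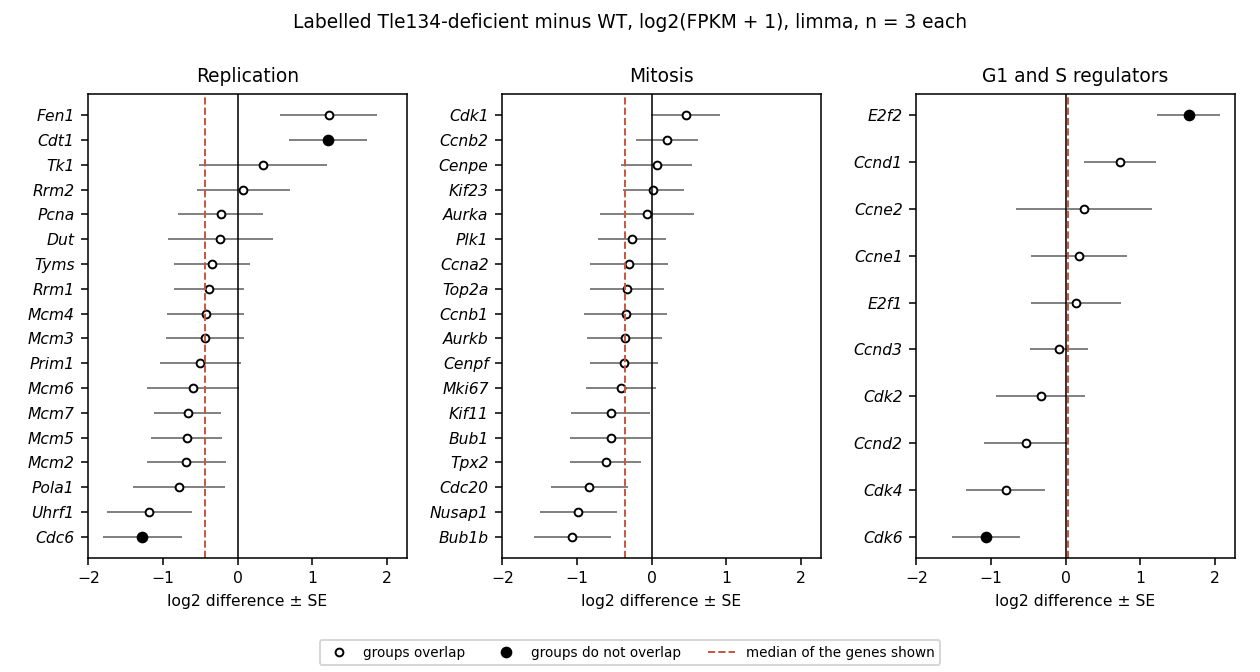
Log2 differences (x axis, labelled Tle134-deficient minus WT, log2(FPKM + 1), limma) of the 46 tested members, by class, with bars of ± SE from 3 libraries a group. Filled points are members whose groups did not overlap, and dashed lines are the class medians of -0.43, -0.35 and 0.03.

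The plot of log2 differences shows 4 members with no overlap between the groups. Cdt1 and E2f2 were higher in every labelled-deficient library than in any WT library, and Cdc6 and Cdk6 were lower. The corresponding shares of all genes tested are 8.67% higher and 6.56% lower, so 2 of 46 in each direction is below the background on the higher side and near it on the lower side. The smallest adjusted p among the members was 0.145, for E2f2.

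Replication and mitotic genes were low in 2 of the 3 labelled-deficient libraries and at WT level in the other one. Replication genes had a mean log2(FPKM + 1) of 3.75, 3.39 and 4.76 in labelled-deficient replicates 1 to 3, against 3.87, 4.18 and 4.78 in WT replicates 1 to 3. Mitotic genes had 2.64, 2.71 and 3.61 in labelled-deficient, against 3.10, 3.21 and 3.69 in WT libraries. In both classes replicate 3 was the highest library of each group, and labelled-deficient replicates 1 and 2 were below every WT library. The regulators had 3.40, 3.04 and 3.87 in labelled-deficient, against 3.35, 3.08 and 3.84 in WT libraries, with the groups overlapping. As group means, replication genes stood at 3.96 ± 0.71 in labelled-deficient and 4.28 ± 0.46 in WT libraries, and mitotic genes at 2.98 ± 0.54 and 3.33 ± 0.31 (SD, n = 3 each). The replication difference is smaller than the SD of either group, and the mitotic difference is smaller than the SD of the labelled-deficient group and slightly larger than that of WT. After median-of-ratios scaling, which brings the typical gene to the same level in all libraries, mitotic genes stood at 2.96 ± 0.39 in labelled-deficient and 3.38 ± 0.044 in WT libraries, and replication genes at 3.94 ± 0.54 and 4.33 ± 0.18. The replication level minus the mitotic level was 1.11, 0.68 and 1.15 in labelled-deficient, against 0.77, 0.97 and 1.09 in WT libraries, so the balance of the classes overlapped between groups. Annotated FPKM summed to 268034 in WT replicate 2 and 2.58e+06 in WT replicate 3, the extremes. Scaling to the same sum would divide labelled-deficient replicate 2 by 0.626 and WT replicates 1 and 3 by 1.20 and 2.89. Levels per library were not computed on that scale, and the order of the libraries need not hold there.

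**Figure D2:**
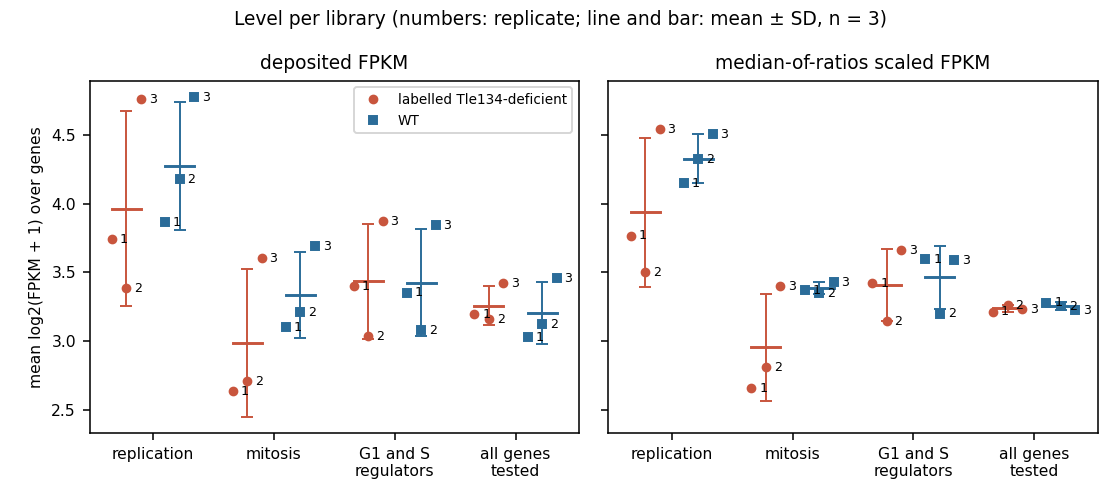
Mean log2(FPKM + 1) (y axis) of replication genes, mitotic genes, regulators and all genes tested in each library, labelled Tle134-deficient left of WT, with group mean ± SD (n = 3). The left panel has deposited FPKM and the right panel FPKM after median-of-ratios scaling. In both panels labelled-deficient replicates 1 and 2 lie below all WT libraries for replication and mitotic genes.

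Counted gene by gene, the libraries separated in the same way. Labelled-deficient replicate 2 was the lowest library for 22 of 46 members (47.8%, against 19.1% of all genes) and labelled-deficient replicate 1 for 12 (26.1%, against 19.1%). After median-of-ratios scaling the order of these libraries turned, with 17 members lowest in replicate 2 and 19 in replicate 1 (against 16.9% and 19.8% of all genes). On that scale 1 member was lowest in labelled-deficient replicate 3 and 1 in WT replicate 3, against 17.2% and 17.5% of all genes. On the deposited scale, none of the 46 was lowest in labelled-deficient replicate 3 or WT replicate 3, where 10.7% and 9.8% of all genes were. Labelled-deficient replicates 1 and 2 were both below all 3 WT libraries for 23 of 46 members (50%), against 14.8% of all genes. These 23 comprised 12 replication genes, 9 mitotic genes and the regulators Cdk4 and Cdk6. In 21 of the 23, labelled-deficient replicate 3 lay within or above the WT range, and in 7 it was above all WT libraries. Over all genes tested, 1635 had labelled-deficient replicates 1 and 2 below all WT libraries. Replicate 3 lay within or above the WT range in 909 of these, and above all WT libraries in 278. Both sets were picked on low values in replicates 1 and 2. Labelled-deficient replicate 3 exceeded the mean of replicates 1 and 2 of its group by a median of 1.11 on the log2 scale, against 0.21 for all genes. WT replicate 3 exceeded the mean of WT replicates 1 and 2 by 0.68, against 0.39 for all genes. After median-of-ratios scaling the excess was 0.84 in labelled-deficient replicate 3, against -0.05 for all genes, and 0.19 in WT replicate 3, against -0.05. WT replicate 3 was then above WT replicates 1 and 2 for 19 of 46 members (41.3%, against 33.9% of all genes). On the deposited scale it was above them for 33 (71.7%, against 53.5%).

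**Figure D3:**
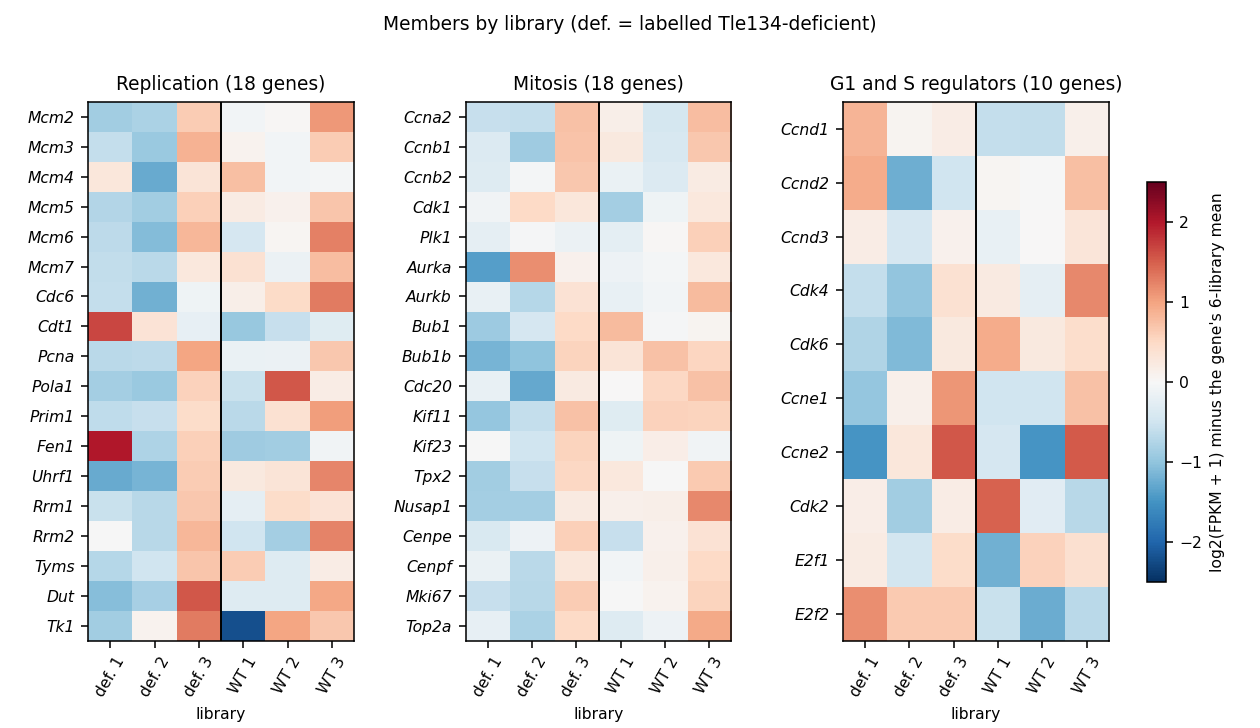
Each tested member's log2(FPKM + 1) minus its own mean over the 6 libraries (colour), with labelled Tle134-deficient replicates 1 to 3 left of WT replicates 1 to 3. The largest deviation of any member from its mean is 2.19, and the low values in labelled-deficient replicates 1 and 2 contrast with replicate 3 of both groups.

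The heat map of members by library shows this contrast for most replication and mitotic genes and less evenly for the regulators. Leaving out labelled-deficient replicate 3, which was seen to be high, gives by construction the same 23 members as lower without overlap, and 2 as higher, against 13.3% of all genes. The medians were then -0.91 for replication and -0.71 for mitotic genes. In that limma fit 0 members passed an adjusted p of 0.05, against 0.307% higher and 0.0994% lower of all genes, and 7 were lower and 2 higher at an unadjusted p of 0.05, against 5.03% and 5.62%. Without WT replicate 3, the medians were -0.27 for replication and -0.07 for mitotic genes, and 0.19 over all genes. The groups then did not overlap for 5 members on the higher side and 2 on the lower side, against 18.3% and 8.92% of all genes. Without replicate 3 of both groups, the counts were 5 higher and 23 lower, against 23.6% and 17.9%. After median-of-ratios scaling, 3 members were higher and 6 lower without overlap, against 7.7% and 8.28%. The 6 were Cdc6, Uhrf1, Cdk6, Cdc20, Nusap1 and Cenpf. With that scaling and without labelled-deficient replicate 3, 3 were higher and 27 lower, against 14.7% and 16.1%. With the replicate number as a block, 0 members passed the adjusted threshold, against 0.00904% of all genes in each direction, and 1 was higher and 5 lower at an unadjusted p of 0.05, against 7.01% and 5.41%.

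Marker sums of cell types also differed between the libraries, in patterns that varied with the cell type. The summed FPKM of monocyte, macrophage and neutrophil markers (13 of 14 in the tables) was 113, 125 and 1786 in labelled-deficient replicates 1 to 3, against 130, 301 and 604 in WT replicates 1 to 3. Above 1 FPKM were 10, 8 and 12 of these 13 in labelled-deficient replicates 1 to 3, against 8, 9 and 8 in WT replicates 1 to 3. S100a9 was listed at 0 in replicates 1 and 2 of both groups. It had 333 FPKM in labelled-deficient replicate 3 and 27.0 FPKM in WT replicate 3. The sum in labelled-deficient replicate 3 rested mostly on Mpo (589 FPKM), Ngp (340 FPKM), S100a9 and Elane (266 FPKM). Lyz2 and S100a8 were highest in WT replicate 3 (65.8 and 30.8 FPKM, against 28.9 and 22.9 FPKM in labelled-deficient replicate 3). Camp was highest in WT replicate 2 and Cd14 in labelled-deficient replicate 1. The other markers of this list were highest in labelled-deficient replicate 3. B-lineage markers summed to 604 to 982 FPKM in labelled-deficient, against 75.3 to 129 FPKM in WT libraries, with 11 or 12 and 8 to 10 of 12 above 1 FPKM. The myeloid sum thus set labelled-deficient replicate 3 apart from the other libraries, and the B-lineage sum set the groups apart. T-lineage markers summed to 201 to 701 FPKM in labelled-deficient, against 417 to 1126 FPKM in WT libraries. Erythroid and megakaryocyte markers summed to 4.55, 6.57 and 51.8 FPKM in labelled-deficient, against 15.1, 11.1 and 13.1 FPKM in WT libraries, with Hbb-b1 listed at 0 in all but WT replicate 3. Mast cell and basophil markers, which include Kit of early progenitors, summed to 10.8, 25.4 and 135 FPKM in labelled-deficient, against 108, 82.4 and 210 FPKM in WT libraries. Like the replication and mitotic genes, this last sum was lower in labelled-deficient replicates 1 and 2 than in any WT library. In labelled-deficient replicate 3 it lay in the WT range. Its markers did not all follow the sum, and Tpsb2 was listed at 0 in every labelled-deficient library. Ms4a2 and Gata2 had 30.1 and 32.3 FPKM in labelled-deficient replicate 3, above the highest WT values of 4.66 and 9.92 FPKM. Dendritic cell (62.3 to 109 and 36.1 to 41.3 FPKM), NK and innate lymphoid (63.8 to 185 and 65.1 to 193 FPKM) and stromal markers (37.8 to 65.5 and 63.3 to 149 FPKM) are given in the order labelled-deficient, then WT. The part of these cells in the levels of the members was not tested.

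Origin licensing genes were lower on average in labelled-deficient libraries except for Cdt1. The 8 tested members had a median log2 difference of -0.63, with 7 below 0. All 6 helicase subunits, Mcm2 to Mcm7, lay below 0, from -0.69 to -0.43, with adjusted p-values of 0.716 to 0.882. Mcm6 had the highest mean of them, with 27.8, 20.4 and 79.8 FPKM in labelled-deficient replicates 1 to 3, against 32.7, 46.0 and 108 FPKM in WT replicates 1 to 3. Labelled-deficient replicate 3 lay between WT replicates 2 and 3, and the groups overlapped (log2 difference -0.60 ± 0.62 SE, adjusted p 0.857; mm9 chromosome 1, 130228168 to 130256233). Leaving out WT replicate 3 brought the Mcm6 difference to -0.11, and leaving out labelled-deficient replicate 3 brought it to -1.16. Mcm7 had 23.7, 22.8 and 44.5 FPKM in labelled-deficient, against 48, 33.3 and 63.5 FPKM in WT libraries (-0.67 ± 0.45, adjusted p 0.716). Its locus also names the intronic microRNAs Mir106b and Mir25 in labelled-deficient replicate 2. Gins2, a subunit of the GINS complex that completes the active helicase, was listed at 0 in replicates 1 and 2 of both groups, and had 11.5 FPKM in labelled-deficient replicate 3 and 12 FPKM in WT replicate 3.

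The 2 helicase loaders had opposite differences. Cdc6 had 2.12, 1.06 and 3.39 FPKM in labelled-deficient replicates 1 to 3, against 4.26, 5.62 and 10.6 FPKM in WT replicates 1 to 3. Every labelled-deficient value was below every WT value (-1.28 ± 0.53 SE, unadjusted p 0.0367, adjusted p 0.447, limma; chromosome 11, 98769203 to 98785256). Cdt1, whose promoter is printed above, had 43.3, 16.6 and 10.9 FPKM in labelled-deficient, against 6.19, 8.29 and 10.3 FPKM in WT libraries. The groups were apart, narrowly for labelled-deficient replicate 3 and WT replicate 3 (1.21 ± 0.52, unadjusted p 0.0442, adjusted p 0.473; chromosome 8, 125091915 to 125097030). The value of labelled-deficient replicate 1 is imprecise, with deposited bounds of 25.9 and 60.7 FPKM and about 24.7 implied fragments. Without that library the Cdt1 difference was 0.67.

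**Figure D4:**
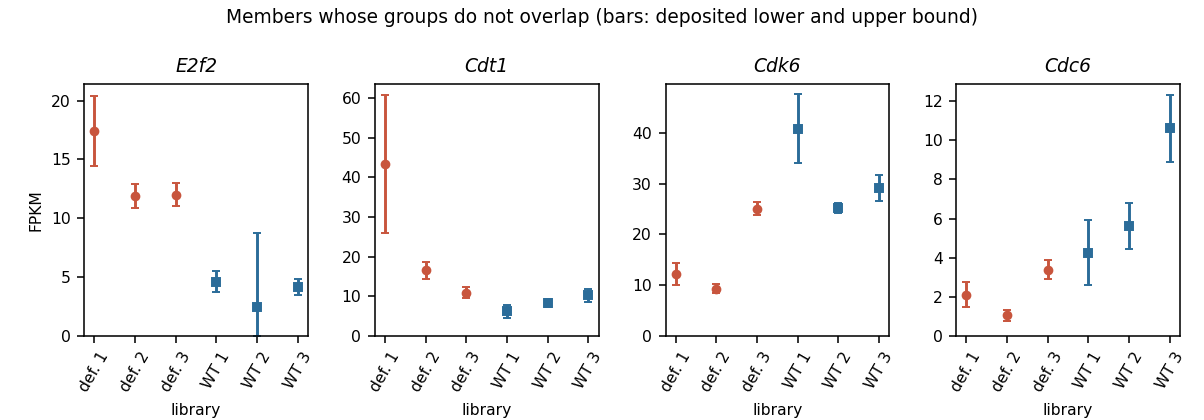
FPKM (y axis) of the members whose groups did not overlap, one panel each, with labelled Tle134-deficient libraries left of WT libraries and vertical lines for the deposited lower and upper bounds. E2f2 and Cdt1 are higher and Cdc6 and Cdk6 lower in the labelled-deficient libraries, and the bounds of the nearest libraries overlap between the groups for Cdt1, Cdc6 and Cdk6 but not for E2f2.

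The plot of the separated members shows that only E2f2 kept its groups apart over the whole width of the deposited bounds. For Cdt1 the bounds of labelled-deficient replicate 3 (9.54 and 12.3 FPKM) overlapped those of WT replicate 3 (8.69 and 11.9 FPKM), and for Cdc6 and Cdk6 labelled-deficient replicate 3 also overlapped a WT library.

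Among DNA synthesis genes the median log2 difference was -0.50 over 5 members, 4 of them below 0. Uhrf1, which brings Dnmt1 to newly copied DNA, had 6.36, 6.92 and 26.3 FPKM in labelled-deficient replicates 1 to 3, against 19.7, 20.9 and 40.2 FPKM in WT replicates 1 to 3. Labelled-deficient replicates 1 and 2 were low and replicate 3 within the WT range (-1.19 ± 0.57 SE, unadjusted p 0.0641, adjusted p 0.539, limma). Pcna, the sliding clamp of the DNA polymerases, had the highest mean of the group, with 45.3, 45.6 and 145 FPKM in labelled-deficient, against 64.3, 65.3 and 116 FPKM in WT libraries. Its difference was -0.23 ± 0.57 with an adjusted p of 0.965 (limma), and its sign turned in 3 of the 6 fits that left out a library. The Pcna value of labelled-deficient replicate 3 is imprecise, with deposited bounds of 103 and 187 FPKM and about 47.3 implied fragments. Fen1, the flap endonuclease of the lagging strand, had 67.6, 9.05 and 24.7 FPKM in labelled-deficient, against 8.24, 8.38 and 15.2 FPKM in WT libraries, where only labelled-deficient replicate 1 is far above the rest (1.22 ± 0.65, adjusted p 0.599). That library gave Fen1 deposited bounds of 44.6 and 90.6 FPKM. Pola1 and Prim1, subunits of the DNA polymerase alpha-primase complex, had differences of -0.79 and -0.50, with adjusted p-values of 0.77 and 0.863 (limma).

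Genes of deoxynucleotide supply had a median difference of -0.23 over 5 members, with 3 below 0, the closest to 0 of the 3 replication groups. Rrm1, the large subunit of ribonucleotide reductase, had 10.2, 9.14 and 25.4 FPKM in labelled-deficient replicates 1 to 3, against 13, 21.6 and 19.9 FPKM in WT replicates 1 to 3 (-0.38 ± 0.47 SE, adjusted p 0.888, limma). Dut, which keeps uracil out of DNA, had 7.55, 9.03 and 51.7 FPKM in labelled-deficient, against 13.4, 13.4 and 34.2 FPKM in WT libraries. Labelled-deficient replicate 3 was the highest of all 6 for both genes (Dut: -0.23 ± 0.70, adjusted p 0.974). Rrm2, Tyms and Tk1 had differences of 0.08, -0.34 and 0.34.

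Among the regulators of G1 and S phase, E2f2 had a higher mean and the kinases of the D-type cyclins had lower means in labelled-deficient libraries. E2f2, a transcription factor of the E2f family, had 17.4, 11.9 and 12 FPKM in labelled-deficient replicates 1 to 3, against 4.61, 2.49 and 4.16 FPKM in WT replicates 1 to 3. The groups were far apart (1.65 ± 0.43 SE, unadjusted p 0.00329, adjusted p 0.145, limma; chromosome 4, 135728189 to 135751971). WT replicate 2 rests on very little, with deposited bounds of 0 and 8.76 FPKM. The summed FPKM of B-lineage markers was also higher in every labelled-deficient library, as given above. Vpreb1 and Vpreb3 of that list overlapped between the groups, and a link to E2f2 was not tested. E2f1, its close relative, had a difference of 0.14 with an adjusted p of 0.985.

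Cdk6, a partner of the D-type cyclins, had 12.2, 9.33 and 25.1 FPKM in labelled-deficient, against 40.8, 25.2 and 29.1 FPKM in WT libraries. The groups did not overlap, but labelled-deficient replicate 3 (bounds 23.7 and 26.4 FPKM) overlapped WT replicate 2 (bounds 24.2 and 26.1 FPKM) in the deposited bounds (-1.07 ± 0.45 SE, unadjusted p 0.041, adjusted p 0.456, limma). Its assembled locus differed in every library and spans at most 3341017 to 3531001 of chromosome 5. Cdk4 had 25.2, 19.0 and 51.1 FPKM in labelled-deficient, against 45.5, 33.2 and 90.5 FPKM in WT libraries. Labelled-deficient replicates 1 and 2 were below all WT libraries and replicate 3 was not (-0.80 ± 0.53, adjusted p 0.707). The cyclins Ccnd1, Ccnd2 and Ccnd3 had differences of 0.73, -0.53 and -0.09, with adjusted p-values of 0.713, 0.86 and 0.986. Ccne2, a cyclin of the entry into S phase, was listed at 0 in labelled-deficient replicate 1 and WT replicate 2, and reached 2.40 and 7.16 FPKM in labelled-deficient replicates 2 and 3 and 1.09 and 7.04 FPKM in WT replicates 1 and 3. Ccne1 and Cdk2 had differences of 0.18 and -0.34.

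Mitotic cyclins and kinases had a median difference of -0.26 over 7 members, with 5 below 0. Ccnb2, an activating cyclin of Cdk1 whose promoter is printed above, had 9.21, 11.3 and 19.2 FPKM in labelled-deficient replicates 1 to 3, against 10.4, 8.98 and 13.6 FPKM in WT replicates 1 to 3. Its difference was 0.21 ± 0.42 SE (adjusted p 0.956, limma), with the sign turning to -0.076 without labelled-deficient replicate 3. Cdk1, the main mitotic kinase, had 5.77, 9.27 and 7.75 FPKM in labelled-deficient, against 3.03, 5.74 and 7.66 FPKM in WT libraries (0.46 ± 0.46, adjusted p 0.851). The groups overlapped for both genes. The other 5 members, Ccna2, Ccnb1, Plk1, Aurka and Aurkb, had differences from -0.36 to -0.06.

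Spindle, kinetochore and checkpoint genes had a median difference of -0.55 over 9 members, with 7 below 0. Bub1b, the BubR1 kinase of the spindle checkpoint, had 3.83, 4.37 and 14.8 FPKM in labelled-deficient replicates 1 to 3, against 12.4, 16.9 and 14.5 FPKM in WT replicates 1 to 3. Labelled-deficient replicates 1 and 2 were far below the WT range and replicate 3 inside it (-1.06 ± 0.51 SE, unadjusted p 0.067, adjusted p 0.551, limma). Kif23, a kinesin of cytokinesis, had 13.5, 9.35 and 20.5 FPKM in labelled-deficient, against 12.6, 15.5 and 12.7 FPKM in WT libraries (0.02 ± 0.41, adjusted p 0.997, and -0.061 after median-of-ratios scaling). Birc5, survivin of the chromosomal passenger complex, had 9.53, 7.63 and 26.9 FPKM in labelled-deficient, against 7.69 and 8.42 FPKM in WT replicates 1 and 2. The WT replicate 3 value of 47.5 FPKM belongs to a locus that also holds Syngr2, so Birc5 was not counted. The other 7 members ranged from -0.98 for Nusap1, a microtubule protein of the spindle, to 0.06 for Cenpe, a kinetochore motor.

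Mki67, the proliferation marker Ki-67, had 20.7, 19.2 and 49.5 FPKM in labelled-deficient replicates 1 to 3, against 31.3, 33.4 and 46.4 FPKM in WT replicates 1 to 3. Labelled-deficient replicates 1 and 2 were below every WT library and replicate 3 was above all of them (-0.42 ± 0.47 SE, adjusted p 0.869, limma). Top2a, the topoisomerase that untangles sister chromatids, had a difference of -0.33 with an adjusted p of 0.921.

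Other genes of the same processes had medians closer to 0 for replication and for mitosis. Of 33 tested genes of replication, 0 passed the test, 18 lay below 0 and the median was -0.02, with Mcm10, Exo1 and Chaf1a having the smallest p-values. Of 42 tested genes of mitosis, 0 passed, 27 lay below 0 and the median was -0.17. Kif18b, Ncapd2 and Cdca2 had the smallest p-values there, and Ncapd2, a condensin subunit, was lower without overlap of the groups. Of 20 tested genes of cell cycle control, 0 passed, 13 lay below 0 and the median was -0.21. Mycn, a Myc family transcription factor, had 4.36, 1.84 and 6.18 FPKM in labelled-deficient replicates 1 to 3, against 12, 13.7 and 17.4 FPKM in WT replicates 1 to 3, and did not pass the adjusted threshold (-1.67 ± 0.47 SE, adjusted p 0.194, limma). Cdc25a, the phosphatase that activates Cdk2, was also lower in every labelled-deficient library. It had 5.3, 2.1 and 4.15 FPKM there, against 7.88, 7.40 and 8.26 FPKM in WT libraries (adjusted p 0.562, limma). Wee1 had the next smallest p of that list. Over the 3 lists, 3 of 95 tested genes were lower without overlap and 0 higher. The shares over all genes tested were 6.56% lower and 8.67% higher, so these counts do not exceed the background.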

How the data were processed

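The authors deposited, per the file headers, 1 FPKM table for each of 6 libraries, with a lower and upper bound for each locus. The submitters' processing notes list mm9 as the build and name TopHat2 2.1.1, Trimmomatic 0.38 and featureCounts 2.0.1, with no roles. The columns look like Cufflinks gene tracking output. The sources used here do not state the annotation or the use of strand, and loci differ between libraries. Counts were not used, so depth is only implied by the width of the bounds, taken as 2 SD on each side.

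Symbols that shared a locus in any library were joined (24318 symbols, 23401 units). Genes with at least 1 FPKM in at least 3 libraries (11063) were fitted as log2(FPKM + 1) with limma 3.58.1 in R 4.3.3 (group as the only term, trend and robust empirical Bayes), with Benjamini-Hochberg adjustment. Fold changes on this scale understate those of low genes. The step was also run on simulated data with independent noise for each gene. That setting lacks the shifts that many genes of a library share, so it does not test the step under them. Tables were joined with Python 3.11.15 and pandas 2.3.3. Members and lists were chosen with earlier results of these data known. Full values are given for members whose groups do not overlap or whose unadjusted p is under 0.05, those with the smallest p or highest mean of each role list, and those of joined loci. Fen1 was added after its values were seen. The alternatives were pseudocount, filter, scaling, the replicate block, empirical Bayes options, single symbols and leaving out each library. Promoters came from RefSeq (GRCm38.p6) and no coordinate was converted.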

Additional observations from a re-analysis of the deposited data

How the results depend on the processing

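No member passed an adjusted p of 0.05 in any of the 17 alternatives, and the smallest adjusted p of the 15 named members was 0.111. Of 254 values of these members, 240 kept their direction. Over all genes, 71 were called higher and 12 lower. The lower count was 3 with a pseudocount of 0.1, 5 with a pseudocount of 5 and 4 without trend and robust options. With no filter on low values, limma called 0 higher and 0 lower, with 1181 genes at an unadjusted p under 0.05. After scaling to the same sum it called 3 higher and 1 lower. Leaving out 1 library at a time gave 0 to 56 higher and 0 to 11 lower genes, and the cause was not tested. Members whose groups did not overlap, 2 higher and 2 lower, became 2 to 5 higher and 2 to 23 lower on leaving out 1 library, while the shares over all genes became 10.8% to 18.3% higher and 8.92% to 14.8% lower. The lower count was 1 with a filter of 5 FPKM (4.61% of all genes), 6 after median-of-ratios scaling (8.28%) and 0 after scaling to the same sum (2.07%), where the higher count was 1 (2.35%). The median of the regulators was -0.43 with the filter of 5 FPKM.

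The range on leaving out 1 library was -0.78 to 0.049 for Pcna, -1.07 to 0.25 for Dut, -0.076 to 0.42 for Ccnb2 and -0.25 to 0.28 for Kif23, so the sign of these differences depends on single libraries. It was -1.16 to -0.11 for Mcm6, -0.82 to -0.13 for Rrm1, -0.84 to -0.18 for Mki67, -1.20 to -0.41 for Cdk4, -1.80 to -0.85 for Uhrf1, -1.61 to -0.75 for Bub1b, 0.15 to 0.70 for Cdk1 and 0.67 to 1.62 for Cdt1, with no change of sign. Kif23 was -0.061 after median-of-ratios scaling. In the alternatives chosen after seeing the data, leaving out replicate 3 of both groups gave 19 higher and 2 lower genes, 5 higher and 23 lower members without overlap and -0.29 for Kif23. Median-of-ratios scaling without labelled-deficient replicate 3 gave 27 lower members, -0.059 for Ccnb2 and -0.24 for Kif23.

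With the replicate block, limma called 1 gene higher and 1 lower, 0 members were called, and 1 member was higher and 5 lower at an unadjusted p under 0.05. Deviations of same-numbered libraries correlated at 0.08, 0.18 and 0.17, not all over 0.1, so the numbers were not taken to pair the libraries, although each library correlated best with its own number. Precision is limited by 3 libraries a group and by the shallow replicate 1 of each.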
